A study of Mus musculus with 15 samples.

Results

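The miR-181 family was followed through 15 RNA samples of mouse pancreatic endocrine cell lines, profiled with TaqMan rodent miRNA cards, which hold 1 real-time PCR assay per miRNA. Its members were every assay on the cards named for miR-181a, miR-181b, miR-181c or miR-181d, whatever the copy, arm or species. This rule found 3 of the 584 miRNA assays: mmu-miR-181a and mmu-miR-181c on card A, with 1 well each, and mmu-miR-181a-1* on card B, with 2 wells. No rat assay was among them, and miR-181b and miR-181d were not analysed here.

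MiR-181 miRNAs are shared by vertebrates. A miRNA guides the silencing complex to messenger RNAs that pair with its seed, the bases 2 to 8 at its 5′ end, and lowers their translation and stability. MiR-181a is best known from lymphocytes, where it tunes the sensitivity of developing T cells to antigen. Each miRNA precursor folds into a hairpin, from which the 5′ and the 3′ arm can both be cut out, and an asterisk marks the arm that is usually the less abundant.

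The sequences below show how near the measured members are to each other, since both the names and the readouts separate miRNAs that differ by very little. They were taken from RefSeq, build GRCm38.p6, with the seed in capitals and each line written 5′ to 3′. The 2 assays of card A match the 5′ arms, and miR-181a-1* matches the 3′ arm of the miR-181a-1 hairpin.
mmu-miR-181a-5p: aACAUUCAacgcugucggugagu
mmu-miR-181c-5p: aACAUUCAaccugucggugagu
mmu-miR-181a-1-3p: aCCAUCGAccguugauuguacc

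MiR-181a-5p (23 bases) and miR-181c-5p (22 bases) had an edit distance of 1, sharing their first 10 and last 12 bases. Their seed was found in 4 of the 1679 mature mouse miRNA names of RefSeq, all of them miR-181 5′ arms, of which miR-181b-5p and miR-181d-5p are the others. The 3′ arm miR-181a-1-3p had another seed, which it shared only with miR-181c-3p in that table. How much each assay amplified the sequence of another member was not measured in these samples.

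Family members come from 3 chromosomes. Mature miR-181a-5p is encoded by both Mir181a-1, at chr1:137966455-137966541 on the plus strand, and Mir181a-2, at chr2:38852735-38852810 on the plus strand, so its assay reads the sum of 2 loci. Mir181a-1 lies beside Mir181b-1 and overlaps no other annotated gene, whereas Mir181a-2 lies within the spans of Nr6a1, which encodes an orphan nuclear receptor, and of the noncoding Nr6a1os. MiR-181c-5p is encoded at chr8:84178924-84178945 on the minus strand, between Mir181d and Mir23a, outside other annotated genes. MiR-181a-1-3p comes from the chromosome 1 locus alone. The hairpin of that locus is shown because both of its arms were measured, with the arms in capitals.
Mir181a-1: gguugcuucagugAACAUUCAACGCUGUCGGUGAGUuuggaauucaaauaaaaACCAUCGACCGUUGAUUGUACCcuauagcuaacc

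The samples were αTC1-6, a line from a mouse glucagonoma that stands for pancreatic α cells, and βTC1, a line from a mouse insulinoma that stands for β cells. αTC1-6 was untreated at 24 h, treated for 24 h with a cytokine cocktail, untreated at 48 h or treated for 48 h, and βTC1 was untreated at 24 h, with 3 samples in each of the 5 groups. The cocktail combined 50 IU/ml of IL-1β with IFN-γ and TNF-α, each at a dose of 1000 IU/ml, cells were used at passages 20 to 40, and each line is 1 tumour line, grown in its own medium per the study's methods. The comparisons ask how far the miRNAs of α-like and β-like cells differ at steady state, and how α-like cells respond to proinflammatory cytokines.

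A threshold cycle (Ct) is the PCR cycle at which a product is detected, so a lower Ct means more RNA and 1 cycle is 1 unit on the log2 scale. Levels are given as ΔCt, the Ct of the assay minus that of miR-26a in the same sample, and differences as log2 differences of −ΔCt, positive where the miRNA was higher in the first-named group. Card A gave a Ct in the normalized values for 214 to 276 miRNAs in each 24 h sample and for 304 to 337 in each 48 h sample. Card B gave one for 174 to 191 miRNAs, and miR-26a itself had a Ct from 16.97 to 18.98. MiR-375 and miR-7a, which mark islet endocrine cells, were detected in all 6 untreated samples of 24 h, with Ct values of 13.42 to 14.94 for miR-375. No member was undetermined in any sample, and the highest Ct was 31.94. The normalized values were blank once each for miR-181a, miR-181c and the first miR-181a-1* well, always in a replicate 1, and these wells were treated as missing.

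At steady state the miR-181 assays were all higher in βTC1 than in αTC1-6. MiR-181a and miR-181c passed the threshold, at 11.4-fold and 40.9-fold, and miR-181a-1* was 8.30-fold higher with an adjusted p-value just above it. For each of the 3 assays no βTC1 sample overlapped any αTC1-6 sample, whatever the treatment or the time. How many of all assays separated the lines in this way was not counted. For miR-181a the nearest samples, βTC1 replicate 3 (ΔCt 5.44) and treated αTC1-6 replicate 2 of 24 h (5.55), were only 0.113 cycles apart.

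**Figure D1:**
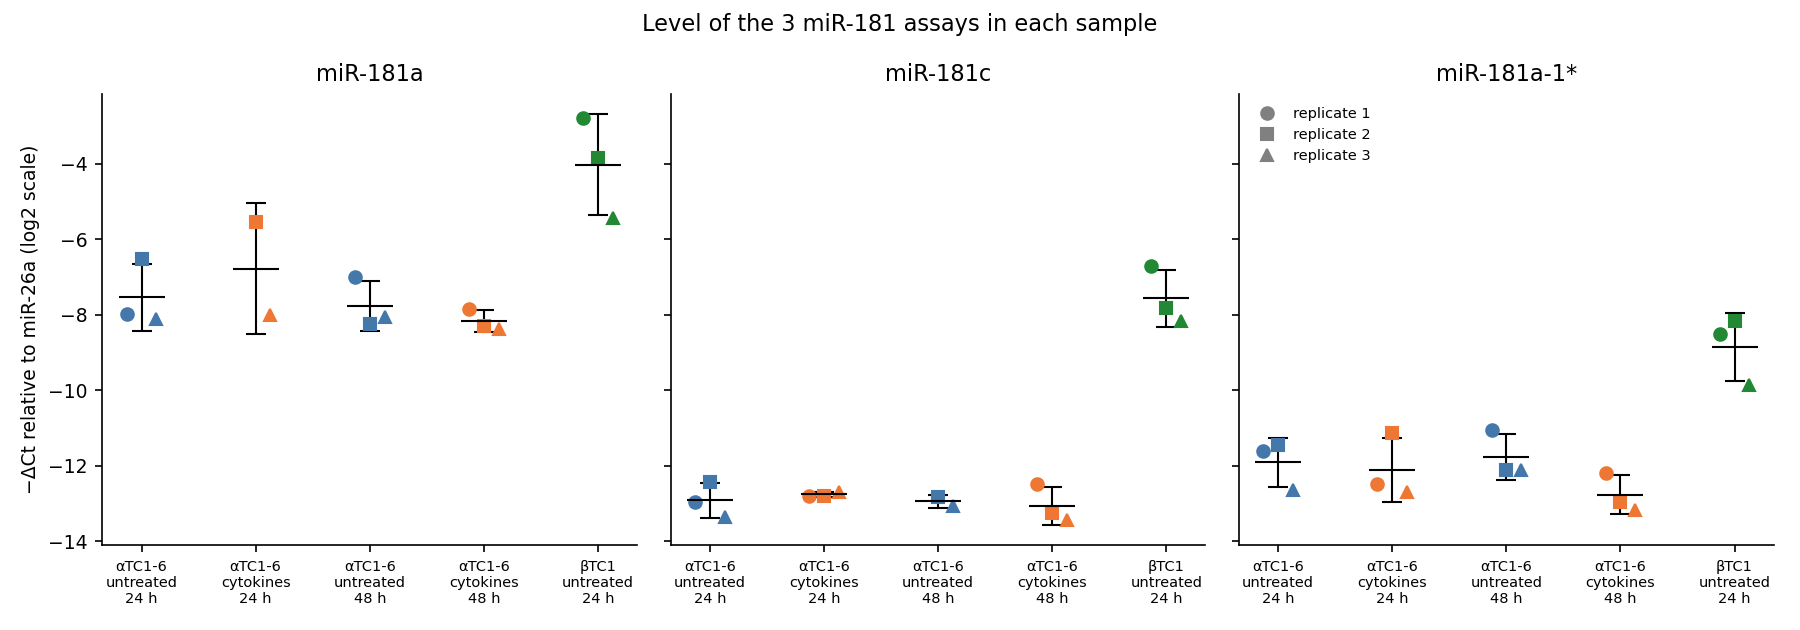
Level of miR-181a, miR-181c and miR-181a-1* as −ΔCt relative to miR-26a (log2 scale, y axis) in each group (x axis); points are samples, shaped by replicate number, and bars are the mean ± SD. In every panel the βTC1 samples lie above all αTC1-6 samples, by the widest margin for miR-181c.

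The miR-181a assay reads the 5′ arm best known from lymphocytes. Its ΔCt in untreated αTC1-6 at 24 h was 7.98, 6.52 and 8.12 in replicates 1 to 3 (7.54 ± 0.886, SD, n = 3), and in βTC1 it was 2.78, 3.86 and 5.44 (4.03 ± 1.34, SD, n = 3). All βTC1 samples were higher, and the lowest of them was 1.08 cycles away from the nearest untreated αTC1-6 sample. At its mean ΔCt miR-181a corresponded to 0.537% of the miR-26a signal in αTC1-6 and to 6.14% in βTC1, if each cycle doubles the product. The log2 difference was 3.51 (SE 0.868, 95% interval 1.35 to 5.68, limma, adjusted p = 0.0207). This call was lost when any of 4 samples was left out: adjusted p was 0.0675 without replicate 1 and 0.0798 without replicate 3 of untreated αTC1-6, and 0.0631 without replicate 1 and 0.0752 without replicate 2 of βTC1.

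MiR-181c, which carries the same seed but is made from chromosome 8, gave the widest separation. Its ΔCt was 12.96, 12.43 and 13.36 in untreated αTC1-6 at 24 h (12.9 ± 0.465, SD, n = 3) and 6.71, 7.81 and 8.16 in βTC1 (7.56 ± 0.755, SD, n = 3). The gap between the nearest samples of the lines was 4.27 cycles, several times the spread within either line. The log2 difference was 5.35 (SE 0.573, 95% interval 3.93 to 6.78, limma, adjusted p = 0.000606). Leaving out any 1 of the 6 samples kept it between 4.93 and 5.65, with adjusted p-values of at most 0.00537.

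MiR-181a-1*, the opposite arm of the chromosome 1 hairpin, was measured in duplicate wells. Its ΔCt was 11.61, 11.45 and 12.65 in untreated αTC1-6 at 24 h (11.9 ± 0.648, SD, n = 3) and 8.52, 8.17 and 9.87 in βTC1 (8.85 ± 0.896, SD, n = 3). The groups did not overlap, with 1.59 cycles between the nearest samples. The log2 difference was 3.05 (SE 0.657, 95% interval 1.42 to 4.69, limma, adjusted p = 0.0521), which missed the threshold. On card B 15 of the 199 assays tested were past the threshold, against 127 of 281 on card A, and adjusting over both cards together gave miR-181a-1* an adjusted p of 0.0184. The duplicate wells of this assay differed by a median of 0.2 cycles over 14 samples, compared with 0.299 over all assays in duplicate on the card.

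Many other miRNAs separated the lines. Of 480 assays tested, 142 (29.6%) were past the threshold in either direction and 85 (17.7%) were past it and higher in βTC1, compared with 2 of the 3 miR-181 assays. The median log2 difference over all assays tested was 0.52, below each member's value. By size of the increase in βTC1 miR-181c ranked 65, miR-181a 96 and miR-181a-1* 101 among the 480. For all 3 members the exact permutation test, two-sided and with 3 samples a group, gave p = 0.1, the smallest it can give.

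**Figure D2:**
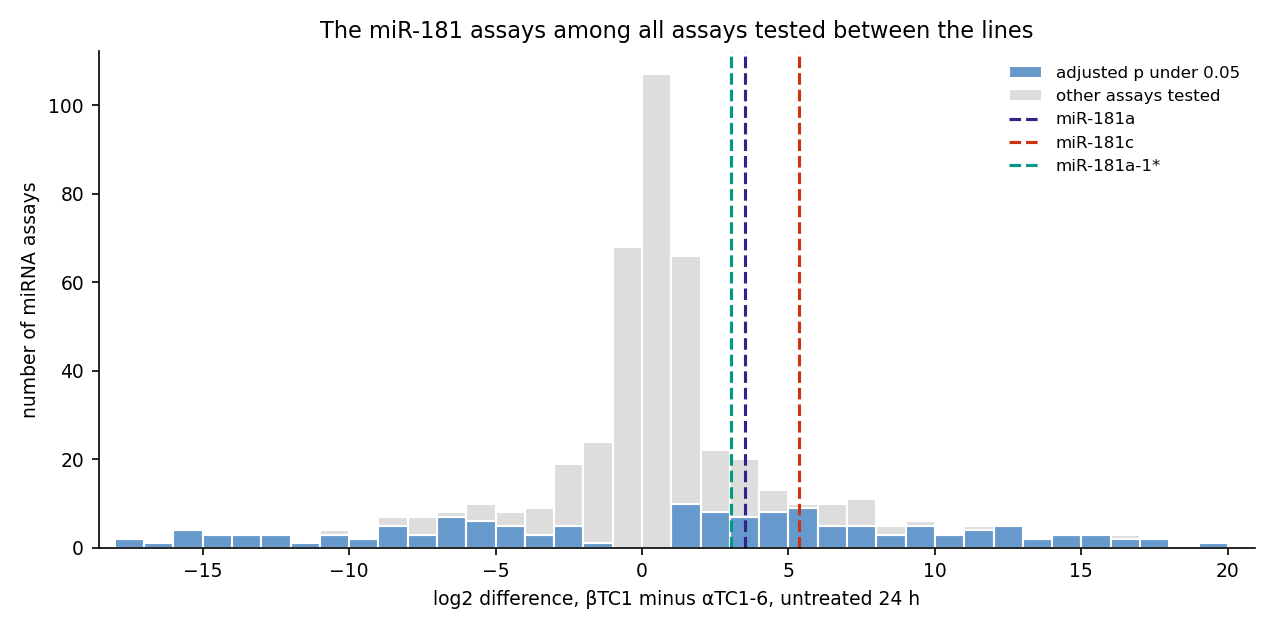
Number of miRNA assays (y axis) by log2 difference between untreated βTC1 and αTC1-6 at 24 h (x axis, bins of 1 log2 unit) over the 480 assays tested, stacked by whether the adjusted p-value was under 0.05; dashed lines mark the 3 miR-181 assays. The miR-181 assays lie to the right of the main mass, at 3.05, 3.51 and 5.35, well inside the range of the assays past the threshold.

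The 2 members of card A did not differ between the lines by the same amount. The Ct of miR-181c minus that of miR-181a, a gap that needs no reference RNA, was 4.98, 5.91 and 5.23 cycles in untreated αTC1-6 at 24 h (5.37 ± 0.48, SD, n = 3). In βTC1 it was 3.93, 3.95 and 2.72 cycles (3.54 ± 0.706, SD, n = 3). All αTC1-6 gaps were wider than all βTC1 gaps, so miR-181c was higher relative to miR-181a in βTC1, by 1.84 on the log2 scale or 3.57-fold. A two-sided exact permutation test gave p = 0.1, the smallest possible with 3 samples against 3. In the other αTC1-6 groups the gap lay between 4.57 and 7.25 cycles, again above every βTC1 sample. For untreated replicate 1 of 48 h, blank for miR-181c in the normalized values, the non-normalized table gave a gap of 4.28 cycles. The mean gap in untreated αTC1-6 at 48 h was 4.78 cycles (n = 2), nearer to that of βTC1 than the mean at 24 h. The absolute gap between the assays also depends on how well each of them amplifies, which cancels only in the comparison between groups. Amplification of 1 member by the assay of the other would not cancel, and it was not measured in these samples.

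**Figure D3:**
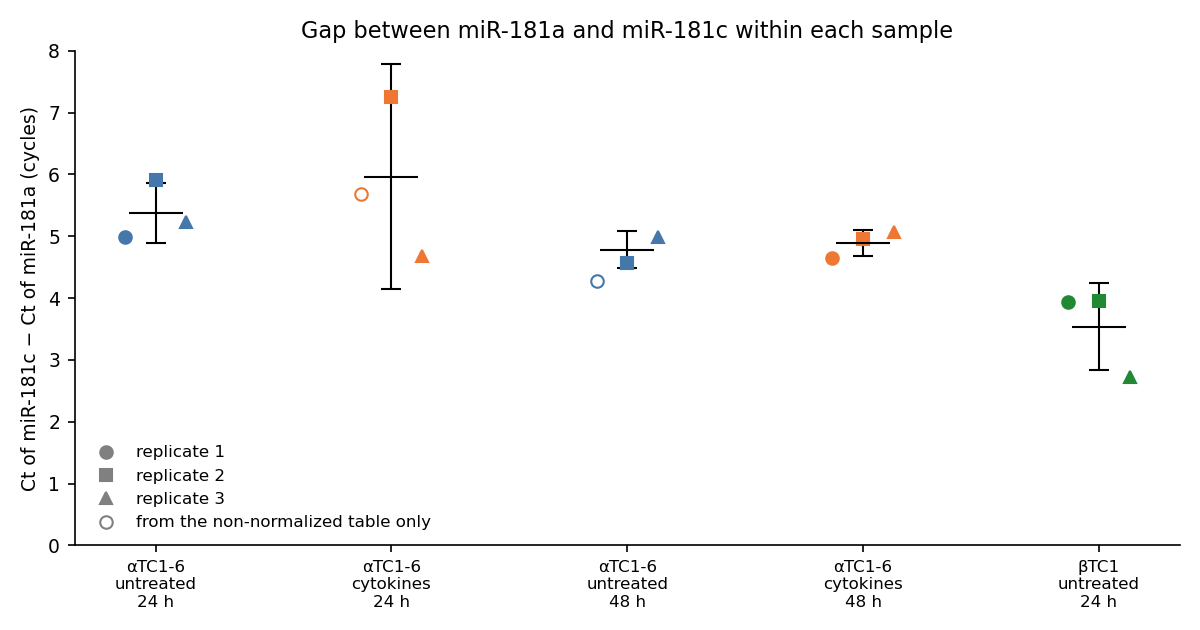
Ct of miR-181c minus Ct of miR-181a (cycles, y axis) within each sample by group (x axis); filled points are from the normalized table, open points are 2 samples with a blank there, read from the non-normalized table, and bars are mean ± SD of the filled points. βTC1 has the smallest gaps, 2.72 to 3.95 cycles.

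Cytokines did not move any miR-181 assay past the threshold at 24 h. Of 445 assays tested, 1 (0.225%) was past it, and 0 with the replicate number as a block, where 47 had an unadjusted p under 0.05. The ΔCt of miR-181a in treated cells was 5.55 and 8.01 in replicates 2 and 3 (6.78 ± 1.74, SD, n = 2), the first lower and the second within the range of untreated cells, and replicate 1 was blank. The log2 difference was 0.76 (95% interval -1.92 to 3.44, limma, adjusted p = 0.963). Compared within replicate numbers, it was 0.97 and 0.12 in the 2 pairs with values, and 0.41 for replicate 1 in the non-normalized table. Without the treated replicate 2 it was -0.47, which sets treated replicate 3 alone against all 3 untreated samples. MiR-181c was nearly the same in the 3 treated samples, with ΔCt of 12.80, 12.80 and 12.68 against 12.43 to 13.36 in untreated cells, and a log2 difference of 0.15 (95% interval -0.77 to 1.08, adjusted p = 0.963). MiR-181a-1* had ΔCt of 12.47, 11.13 and 12.70 in treated cells, overlapping the untreated ones, and a log2 difference of -0.20 (95% interval -1.71 to 1.32, adjusted p = 0.970). The interval of miR-181c leaves out changes beyond 2.11-fold upwards, whereas that of miR-181a is too wide to bound a change of several fold.

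At 48 h the treated samples were again not past the threshold for any member, with 3 of 534 assays (0.562%) past it, or 0 with the replicate number as a block, where 121 had an unadjusted p under 0.05. MiR-181a had ΔCt of 7.84, 8.29 and 8.38 in treated cells and 7.001, 8.25 and 8.07 in untreated cells, and a log2 difference of -0.40 (95% interval -1.55 to 0.75, limma, adjusted p = 0.829). MiR-181c had ΔCt of 12.50, 13.24 and 13.45 in treated cells and 12.82 and 13.06 in untreated replicates 2 and 3, and a log2 difference of -0.12 (95% interval -1.37 to 1.13, adjusted p = 0.925). Treated and untreated samples overlapped for both of these 5′ arms. Compared within replicate numbers, which paired the samples at 48 h, the log2 differences of miR-181a were -0.84, -0.044 and -0.32. Those of miR-181c were -0.43 and -0.39 in the 2 pairs with values, and -1.21 for replicate 1 in the non-normalized table. With the replicate number as a block the log2 difference of miR-181c was -0.41 (limma, adjusted p = 0.533). Over all samples of the non-normalized table it was -0.68 (limma, adjusted p = 0.784).

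Relative to miR-26a, miR-181a-1* had the largest difference of the 3 assays under cytokines at 48 h. Its ΔCt was 12.18, 12.97 and 13.16 in treated cells and 11.06, 12.11 and 12.11 in untreated cells, so that every treated sample was lower, by only 0.0701 cycles between the nearest. Compared within replicate numbers, the log2 differences were -1.12, -0.86 and -1.04. The mean log2 difference was -1.01 (SE 0.479, 95% interval -2.23 to 0.22), with an adjusted p of 0.366 by limma and of 0.107 with the replicate number as a block. The exact permutation test gave p = 0.1, the smallest possible. In treated replicate 2 the duplicate wells differed by 1.40 cycles, the most of any sample, and with the first wells alone, as the non-normalized table holds them, the difference of that replicate pair was -0.063. Without untreated replicate 1 the mean log2 difference was -0.66.

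Over all assays of the 48 h comparison the log2 differences relative to miR-26a had a median of -0.51, so most miRNAs lay lower in treated cells on this scale. When samples were centred on the median of the assays instead, that median was 0.17, and miR-181a and miR-181c were at 0.28 and 0.44. Relative to U6 and small nucleolar RNAs the median was -0.059 and miR-181c was at 0.33. MiR-181a-1* kept its direction but was at -0.33 centred on the median and at -0.34 with U6 and small nucleolar RNAs, against -1.01 relative to miR-26a. The direction of these small differences in the 5′ arms therefore depended on the reference.

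No member passed the threshold with time in culture. Between untreated αTC1-6 at 48 h and at 24 h the log2 differences were -0.23 for miR-181a, -0.023 for miR-181c and 0.14 for miR-181a-1*, with limma adjusted p-values of 0.928, 0.987 and 0.999. In this comparison 29 of 489 assays (5.93%) were past the threshold, 27 of them higher at 48 h. Card A held more miRNAs with a Ct at 48 h in the normalized values. However, 59 to 85 of its wells in each 24 h sample were undetermined in those values only, against 0 or 1 in each 48 h sample. The number past the threshold was 2 in the non-normalized table and 0 with undetermined wells missing. The samples of the time points overlapped for all 3 assays. With untreated αTC1-6 of 48 h in place of 24 h, βTC1 was higher by 3.75 for miR-181a, 5.38 for miR-181c and 2.91 for miR-181a-1* on the log2 scale (adjusted p of 0.0158, 0.0031 and 0.0592).

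The cytokine response was also compared between the time points. For miR-181a the treated minus untreated difference at 48 h was lower than that at 24 h by a log2 value of -1.16 (95% interval -3.60 to 1.28, limma, adjusted p = 0.992). The values for miR-181c and miR-181a-1* were -0.28 (adjusted p = 0.992) and -0.81 (adjusted p = 0.563). No member passed the threshold in this test, which 1 of 477 assays (0.21%) did.

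**Figure D4:**
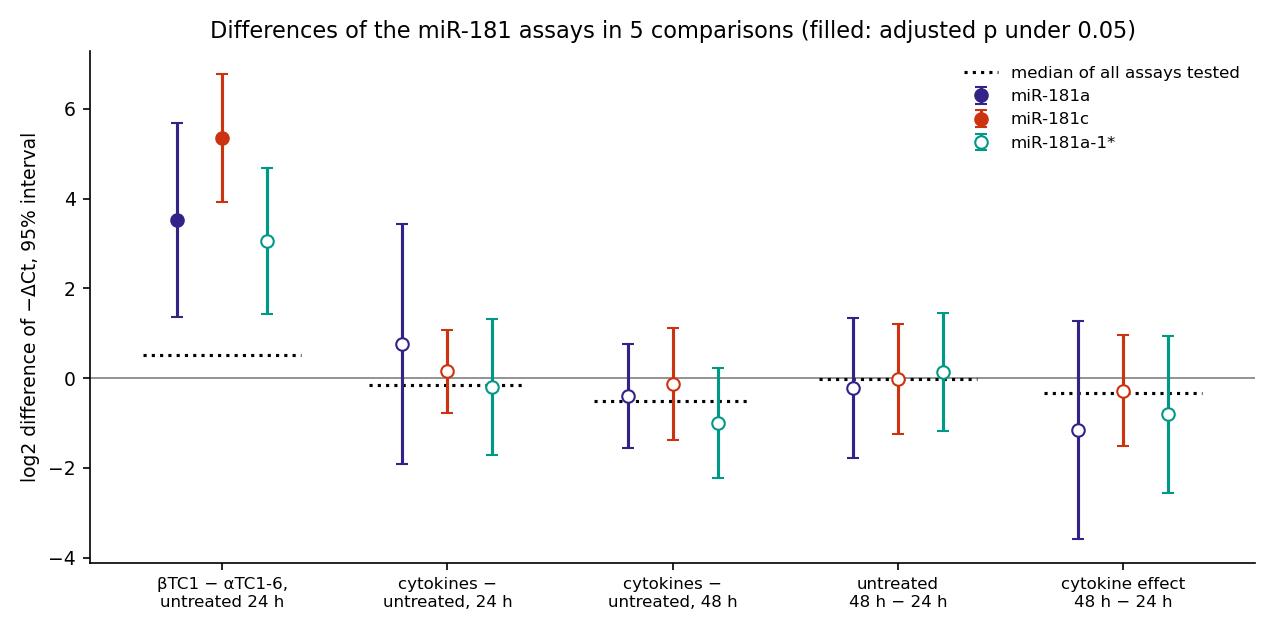
Log2 difference of −ΔCt (y axis) of the 3 miR-181 assays in 5 comparisons (x axis) with 95% intervals from limma; filled points have an adjusted p under 0.05 and dotted lines are the median of all assays tested. Between the lines all intervals lie above 0, and in the 4 comparisons within αTC1-6 all of them include 0.

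Over the 5 groups βTC1 had the highest level of each assay, and its range did not overlap that of the next group. Below it the 4 αTC1-6 groups came in no common order. For miR-181a they ran from treated 24 h (ΔCt 6.78) through untreated 24 h (7.54) and untreated 48 h (7.77) to treated 48 h (8.17), and for miR-181c in the same order from 12.8 to 13.1. For miR-181a-1* the order was untreated 48 h (11.8), untreated 24 h (11.9), treated 24 h (12.1) and treated 48 h (12.8). Every neighbouring pair of αTC1-6 groups in these orders overlapped in its samples.

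The profiles of the members were set beside those of other miRNAs by the root mean square difference of −ΔCt over samples, after centring each profile on its own mean. This is a description over samples that share their card, their preamplification and the split between the lines. Of the 277 miRNAs compared with miR-181a-1* over 15 samples, the nearest were miR-126-5p (0.478 log2 units), miR-137 (0.547) and miR-301b (0.574), against a median of 1.44. MiR-181a and miR-181c each lacked 1 value, and their profiles were compared over the other 14 samples. Only miRNAs with a Ct in all samples used were compared. As their blanks lay in different samples, miR-181a and miR-181c were not compared with each other. The nearest of 297 profiles to miR-181a was that of miR-181a-1*, at 0.574, although the pair lie on different cards, followed by miR-137 (0.820) and miR-126-5p (0.840). For miR-181c the nearest of 280 were miR-465b-5p (0.568), miR-365 (0.623) and miR-676* (0.668), and miR-181a-1* ranked 11, at 0.969.

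Other miRNAs known from lymphocytes were counted beside the family at steady state. Of 13 on the cards 11 were tested, and 7 of them were higher and none lower in βTC1, with a median log2 difference of 2.96 against 0.52 over all assays tested, of which 17.7% were past the threshold and higher in βTC1. Of the 7, 6 belong to the cluster that begins with miR-17, whose miRNAs promote proliferation and B cell survival, and the remaining one was miR-142-3p, a miRNA of blood cells. The largest differences were those of miR-20a, miR-19a and miR-18a, which had Ct values of 18.85 to 25.58 in βTC1. Their βTC1 values alone were enough for these 3 assays to be tested. Undetermined wells entered as a Ct of 40, so the size of these 3 differences depends on that value. Their calls rest in part on it too, and the count of 7 includes these 3 assays. In the normalized values, miR-18a was undetermined in all 3 untreated αTC1-6 samples of 24 h, and miR-19a and miR-20a in 2 of 3. On card A, 59 to 85 wells of each 24 h sample were undetermined only there and had a non-normalized Ct. Such readings at 24 h therefore do not show that a miRNA was absent. The other 4 assays tested, miR-146a, miR-150, miR-155 and miR-223, were not past the threshold.

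The miRNAs annotated beside Mir181c on chromosome 8 were counted at steady state as well. Of 5 assays for miR-23a, miR-27a and miR-24, widely expressed miRNAs of 1 cluster, 4 were tested by limma and none passed, against 29.6% of all assays, nor did any have an unadjusted p under 0.05. The untested assay was that of miR-23a, the nearest of these genes. In the normalized values it had a Ct in 2 of 3 untreated αTC1-6 samples of 24 h, the lowest 21.97. It was undetermined there in all 3 βTC1 samples and all 3 treated αTC1-6 samples of 24 h. At 48 h it had a Ct in all 3 untreated and all 3 treated αTC1-6 samples. The log2 differences of the 4 tested assays between βTC1 and αTC1-6 were between -1.16 and -0.33, with a median of -0.83, whereas that of miR-181c was 5.35. Mature miR-24 is also made from a locus outside this cluster, whereas the arms miR-27a* and miR-24-2*, at -1.16 and -0.57, are named for this one.

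Some markers of other cells differed between the lines and others did not. Of the tested markers of mesenchyme 1 of 2 was past the threshold and higher in βTC1, and of leukocytes 1 of 3. Of muscle it was 1 of 2 and of erythroid cells 0 of 1, against 17.7% of all assays. Both arms of miR-126, which marks endothelium, were higher in βTC1, each with a log2 difference of 2.39 (limma, adjusted p = 0.0141 and 0.00735), and Ct values of 22.16 to 25.59 in βTC1 against 24.74 to 27.98 in untreated αTC1-6 at 24 h. In the normalized values, all 3 assays that mark the exocrine pancreas, miR-216a, miR-216b and miR-217, were undetermined in all untreated αTC1-6 samples of 24 h. They had Ct values of 21.58 to 26.98 in βTC1. At 48 h, miR-216b had a Ct in all 3 untreated αTC1-6 samples, from 30.16 to 36.74, and in 1 treated sample. MiR-216a had a Ct of 20.86 in 1 treated αTC1-6 sample of 48 h. Of the 3 islet endocrine assays, miR-375, miR-7a and miR-7b, none was past the threshold or had an unadjusted p under 0.05. The part of these differences in those of the miR-181 family was not tested.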

How the data were processed

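RNA of 15 samples had been reverse transcribed, preamplified and run by the authors on TaqMan rodent cards A and B. The deposited normalized table holds ΔCt, on a log2 scale, and the relative quantity as a ratio, and the authors' methods name several reference genes, although miR-26a has a ΔCt of 0 in every sample. A second deposited table holds non-normalized Ct values. Ct was taken as ΔCt plus the Ct of miR-26a; columns with the authors' fold changes were not used.

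Undetermined wells carried a Ct of 40 in the normalized table, duplicate wells were averaged, and assays were kept with a Ct in at least 0.5 of the samples compared. −ΔCt was tested with limma 3.58.1 in R 4.3.3 over all assays, without a block, with Benjamini-Hochberg adjustment within each card and a threshold of 0.05; the code was tested on simulated data. Exact permutation tests used scipy. Samples of the same number deviated together in the cytokine comparisons (r from 0.337 to 0.539 at 24 h and from 0.528 to 0.621 at 48 h). The methods describe independent biological replicates, and 3 per group limit the precision.

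Members and lists were chosen with earlier results of these data known. All family assays were named, with the 3 nearest profiles of each and up to 3 miRNAs per list; the other markers named were chosen after their values were seen. The alternatives tried are given in the closing section.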

Additional observations from a re-analysis of the deposited data

How the results depend on the processing

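Values are log2 differences or numbers of assays past the threshold. At steady state miR-181c stayed past it in all alternatives and miR-181a in all but the 4 left-out samples named above, within 2.89 to 4.22 when 1 sample was left out. MiR-181a-1* came past it at 3.05 with undetermined wells as missing, with Ct above 35 set to 35, with a Ct required in every sample, with both cards adjusted together and with all 15 samples in the fit, at 2.91 without normalization, 2.99 centred on the median and 3.17 with U6 and small nucleolar RNAs as the reference, and at 2.68 to 3.56 with 1 sample left out, where only βTC1 without replicate 3 passed.

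No member passed the threshold in the other comparisons under any alternative, but some small differences changed sign. For cytokines at 24 h, miR-181a-1* was 0.011 centred on the median, 0.22 in the non-normalized table and 0.063 from the first wells, and miR-181c was -0.037 without normalization. At 48 h, centring on the median gave 0.28 for miR-181a and 0.44 for miR-181c, and U6 and small nucleolar RNAs gave 0.33 for miR-181c. With culture time, U6 and small nucleolar RNAs gave 0.17 for miR-181a and 0.26 for miR-181c, which was also 0.42 centred on the median, 0.59 without normalization and 0.53 in the non-normalized table. Between the time points the cytokine effect on miR-181c was 0.16 with U6 and small nucleolar RNAs. MiR-181a-1* at 48 h kept its sign but was -0.33 centred on the median and -0.34 with U6 and small nucleolar RNAs, and -1.30 to -0.66 with 1 sample left out. The cause was not tested.

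With 1 sample left out, the cytokine difference at 24 h ranged from -0.47 to 1.99 for miR-181a, from -0.68 to 0.10 for miR-181a-1* and from -0.067 to 0.40 for miR-181c, and that at 48 h from -0.41 to 0.069 for miR-181c. For miR-181a at 24 h both ends rest on 1 treated sample. The difference with culture time ranged from -0.62 to 0.28 for miR-181a, from -0.23 to 0.37 for miR-181a-1* and from -0.24 to 0.22 for miR-181c, and the interaction of miR-181a from -2.39 to 0.068. The change of miR-181c relative to miR-181a ranged from 1.43 to 2.05 at steady state, from -1.88 to 0.70 with cytokines at 24 h and from -0.32 to 0.10 at 48 h.

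At steady state 81 were called with a Ct in every sample, 97 with undetermined wells missing, 101 in the non-normalized table and 94 to 110 with 1 sample left out, against 142. For cytokines at 24 h, against 1, the number was 0 with the Ct limit of 35, with a Ct in every sample, in the non-normalized table and with the replicate block, 2 with all 15 samples in the fit, and 0 to 2 with 1 sample left out; between 13 and 47 had an unadjusted p under 0.05. At 48 h, against 3, it was 1 with undetermined wells missing, 5 with all 15 samples, 0 with the replicate block and 0 to 5 with 1 sample left out. With culture time, against 29, it was 0 with undetermined wells missing, 1 with a Ct in every sample, 2 in the non-normalized table and 0 to 30 with 1 sample left out, being 0 without any of the untreated 48 h samples. For the interaction, against 1, it was 2 centred on the median, without normalization and with undetermined wells missing, 0 with the Ct limit, with a Ct in every sample and in the non-normalized table, 3 without a filter and 1 to 4 with 1 sample left out.

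The replicate block changed no call of a member. At steady state the limma adjusted p with the block was 0.0399 for miR-181a, 0.00601 for miR-181c and 0.0516 for miR-181a-1*. Samples of the same number deviated together less there than in the cytokine comparisons (r from 0.0978 to 0.282). Where a blank left a member without a Ct in every sample, that filter could not test it. Centring on the median leaves the likeness of profiles as it is by construction. The 3 samples of a group and the single well of each card A assay limit the precision.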

Other observations

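Ct values were not spread evenly between whole cycles. On card A 43.7% of the 4164 first-well values under 40 had a fractional part above 0.9, where an even spread would give 10%, and on card B 31.4% of 2636 did. Over the samples this share ran from 26.8% to 59.5% on card A and from 21.1% to 39.5% on card B. Of the 57 miR-181 wells 17 (29.8%) had such a value, 5 of 14 for miR-181a, 4 of 14 for miR-181c and 8 of 29 for miR-181a-1*.

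The deposited tables did not hold the same values throughout. Of 4163 card A wells with a Ct in both, 107 differed by over 0.01 cycle, among them miR-181a in replicate 1 of untreated αTC1-6 at 24 h (26.96 in the normalized table, 26.50 in the other). Further card A wells were undetermined in the normalized table but had a Ct in the other. There were 59 to 85 of them in each 24 h sample and 0 or 1 in each 48 h sample. The non-normalized table gave the same value in both wells of all 150 card B assays in duplicate. The non-normalized table held a Ct for each of the 3 blank miR-181 wells: 25.99 for miR-181a in treated αTC1-6 at 24 h, 30.26 for miR-181c in untreated αTC1-6 at 48 h, and 31.01 for the first miR-181a-1* well in untreated αTC1-6 at 24 h.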
